A study of Mus musculus with 2 samples.

Results

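The adipogenic and lipid storage genes described here are *Pparg*, *Cebpa*, *Zfp423*, *Fabp4*, *Plin2*, *Pnpla2*, *Lipe*, *Lpl*, *Angptl4* and *Cd36*. They were taken by symbol from the deposited gene tables, where 10 of the 24532 listed genes carry these names and all 10 have read counts and TPM in both libraries. TPM (transcripts per 1e6 transcripts) corrects for gene length and for library size. The cells were cardiac myofibroblasts from C57BL/6 mice by the labels (C57BL/6J for isolated myofibroblasts in the study's methods, with males of 8 to 10 weeks in its MI model), isolated 3 days after myocardial infarction (MI) by enzyme digestion of the infarcted heart, attachment to plastic and removal of CD45-positive cells. Both cultures received siRNA at 12.5 nM and were collected 72 h later. One received a control siRNA (siCtrl) and the other an siRNA against *Vgll3* (si*Vgll3*), a TEAD-binding transcription cofactor. Endothelial cells and pericytes carry no CD45 and were not removed by this step, and the number of hearts per culture is not given in the sources used here. As each condition has 1 library, the differences below compare 2 libraries, carry no p-value and could not be checked in replicates.

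White and brown adipocytes form when PPARγ and C/EBPα, a pair of transcription factors that maintain each other's expression, switch on the genes for lipid uptake and storage. ZFP423 marks committed preadipocytes and acts upstream of PPARγ. Fatty acids enter after lipoprotein lipase (LPL) has freed them from circulating triglyceride, a step that ANGPTL4 inhibits, and are carried by CD36 and fatty acid binding proteins such as FABP4. They are stored in droplets coated by perilipins, of which PLIN2 is the form found in most cell types, and are released again by ATGL (*Pnpla2*) and hormone-sensitive lipase (*Lipe*). In the heart, capillary endothelium also carries FABP4 and CD36, and cardiomyocytes and fibroblasts can make LPL. VGLL3 has itself been described as an inhibitor of adipocyte differentiation.

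Reads counted on genes numbered 140815237 in siCtrl and 125789276 in si*Vgll3*. Of these, 42925 and 16524 fell on *Vgll3*, so 41.6% of its siCtrl TPM was left. The labels name the cells cardiac myofibroblasts, and fibroblast and myofibroblast markers such as *Col1a1*, *Acta2* and *Pdgfra* were abundant. Of the listed genes, 10 of 10 had reads in both libraries, summing to 16581 TPM in siCtrl against 13813 TPM in si*Vgll3*. These markers did not move one way, as 5 were higher in si*Vgll3* and 5 lower. *Col1a1* (4918 and 2631 TPM), *Col1a2* (4585 and 3179 TPM) and *Postn* (696 and 299 TPM) were among the lower. *Acta2* (3296 and 3866 TPM) and *Tagln* (1864 and 2680 TPM) were among the higher. Of 12 macrophage markers, 5 had no read in either library, *Ptprc*, *Adgre1* and *Itgam* among them. Others were detected, such as *Lyz2* (738 reads in siCtrl and 196 in si*Vgll3*), *Csf1r* (320 and 419), *Cd14* (163 and 231) and *Cd68* (97 and 84). Of 12 cardiomyocyte markers, 9 had no read in either library, including *Myh6*, *Ryr2* and *Actn2*. Of 12 endothelial markers, 0 were without reads, and they summed to 35.2 TPM in siCtrl against 33.6 TPM in si*Vgll3*. In such bulk RNA, fewer cells of a type and less RNA per cell cannot be told apart.

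The 10 genes did not move one way. *Lpl* and *Lipe* were lower in si*Vgll3*, *Angptl4* and *Pparg* were higher, and *Plin2*, the most abundant of them in si*Vgll3*, was at nearly the same level in both libraries. The difference is given as M, the log2 ratio of TPM in si*Vgll3* to TPM in siCtrl, and the level as A, log2 of the mean TPM. A gene was called lower at M < −0.5 and higher at M > 0.5, in each case with A > 0. The study gives these limits for lower genes. The higher limit mirrors it, and both it and the definition of A were set here. By this rule 2 of the 8 genes with A > 0 were lower and 2 were higher, or 25% in each direction, while over all 11754 genes with A > 0 the shares were 11.4% lower and 5.73% higher. The median M of these 8 genes was −0.13, beside −0.05 over all genes with A > 0. *Zfp423* and *Cd36* had A below 0 and could not be called. Square brackets after M hold a 95% interval for the ratio of reads (Clopper-Pearson), moved onto the TPM scale. PCR copies make reads dependent on each other, so such intervals cover no more than counting error. By them, the interval of each of the 10 genes left out 0, 5 upward and 5 downward. At this depth even *Plin2*, with an M of 0.05, met that. The share of all genes that did so was not counted, so this does not set the 10 genes apart. The whole interval lay past the threshold for *Lpl*, *Lipe* and *Angptl4*, a requirement that 8.31% of all genes met on the lower side and 3.76% on the higher side. At a threshold of 1, *Lpl* alone was called, beside 3.27% of all genes lower and 1.76% higher. At A > 2, where *Pparg* and *Lipe* drop out, *Lpl* was lower and *Angptl4* higher, beside 9.34% and 3.95% of all genes. Without the filter on A, *Cd36* joined the higher genes, beside 14.9% lower and 10.1% higher overall.

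**Figure D1:**
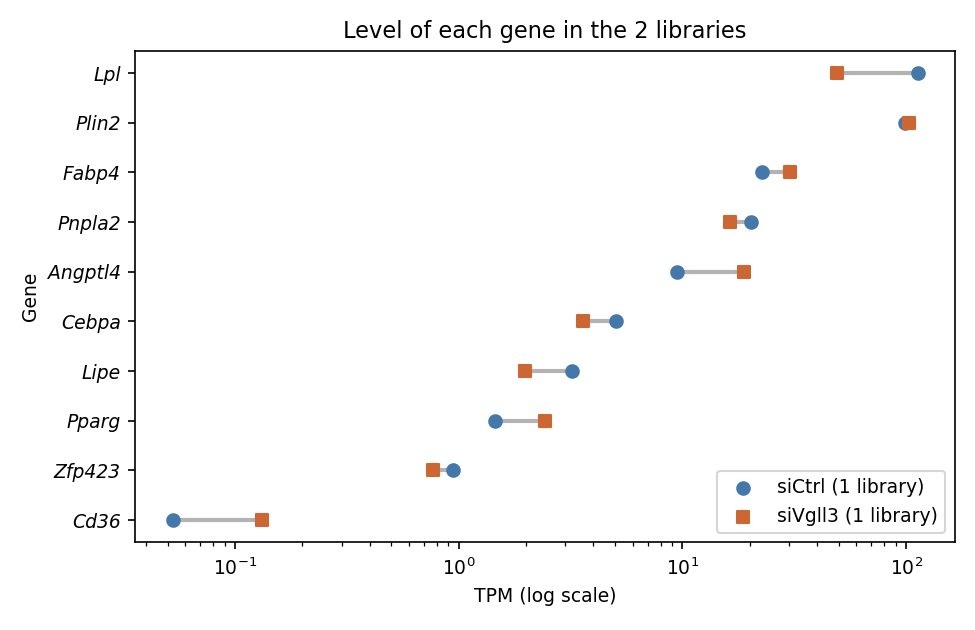
TPM of each gene (log axis) in siCtrl (circles) and si*Vgll3* (squares), 1 library each, ordered by the siCtrl level. *Lpl* was at 112 and 48.9 TPM, while *Plin2* was at 98.9 and 103 TPM.

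The levels covered a wide range. In siCtrl, *Lpl* at 112 TPM and *Plin2* at 98.9 TPM ranked 1516 and 1726 among the 14158 genes with TPM. *Fabp4* and *Pnpla2* followed at 22.6 and 20.3 TPM, and *Angptl4* and *Cebpa* at 9.45 and 5.06 TPM. *Lipe*, *Pparg* and *Zfp423* were at 3.23, 1.46 and 0.941 TPM, and *Cd36* was lowest at 0.0527 TPM. In si*Vgll3* the order of the upper genes was different, since *Plin2* stood above *Lpl* and *Angptl4* above *Pnpla2*.

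*Lpl*, the enzyme that hydrolyses lipoprotein triglyceride at the vessel wall, had the lowest M of the 10 genes. It lies on chromosome 8 of mm10 from 68880491 to 68907448 and shares no exon with another annotated gene. The siCtrl culture gave 29067 *Lpl* reads and the parallel si*Vgll3* culture 11689, or 112 and 48.9 TPM. It ranked 1516 in siCtrl and 3182 in si*Vgll3*, and 43.5% of the siCtrl level was left. This gave an M of −1.20 [−1.23, −1.17], close to that of the targeted gene *Vgll3* (−1.27 [−1.29, −1.24]). Only 2.16% of the genes with A > 0 had a lower M than *Lpl*. The summed marker levels of other cells were also lower, but each sum was carried by few genes. The 12 cardiomyocyte markers summed to 60.0 TPM in siCtrl against 10.4 TPM in si*Vgll3*, all of it from *Tnnt2* (M of −2.53), with *Myh6*, *Ryr2* and *Actn2* at 0 reads. The macrophage markers summed to 15.6 and 8.79 TPM, of which *Lyz2* made up 10.9 and 3.13 TPM, while *Csf1r* and *Cd14* were called higher (M of 0.50 and 0.62) and *Ptprc* had 0 reads. The pericyte markers summed to 242 and 145 TPM, of which *Pdgfrb*, a gene of fibroblasts too, made up 227 and 136 TPM. Their part in the *Lpl* difference was not tested.

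*Angptl4*, the secreted protein that unfolds and inactivates LPL, was called higher. The gene lies on chromosome 17 from 33773750 to 33781830. The siCtrl library held 1149 reads of it and the si*Vgll3* library 2119, which is 9.45 and 18.8 TPM. The M of *Angptl4* was 1.00 [0.89, 1.10], higher than that of 98.2% of the genes with A > 0. *Lpl* transcripts outnumbered *Angptl4* transcripts 11.9 to 1 in siCtrl and 2.59 to 1 in si*Vgll3*, by TPM. Of the reads on these 2 genes, *Angptl4* took between 3.59% and 4.02% in siCtrl and between 14.7% and 16.0% in si*Vgll3*, by Clopper-Pearson intervals. The pair was set side by side after the values were seen.

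The study concerns miR-29b, so the 3′ UTRs of these genes were searched for the match to the miR-29 seed, bases 2 to 8 of the microRNA, which miR-29a, b and c share. The match is spelled TGGTGCT and was searched on the transcript strand of the GENCODE transcript with the longest coding sequence. Of the 10 genes, *Lpl* and *Angptl4* each held 1 match and the other 8 held none, while 14.3% of the 3′ UTRs of genes with A > 0 held it. The *Lpl* 3′ UTR is 2428 nt long and that of *Angptl4* 1637 nt, against a median of 995 nt. The microRNA (RefSeq, GRCm38.p6) and both sites (chr8:68906757-68906780, plus strand, and chr17:33774983-33775006, minus strand) are printed 5′ to 3′ because they are the only such matches among the 10 genes, with the seed and its match in capitals.
mmu-miR-29b-3p: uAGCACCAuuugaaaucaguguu
Lpl site: cagtatagatttgTGGTGCTaact
Angptl4 site: ctggatacactcaTGGTGCTgttg
One of the 2 genes with a match was the lowest of the set and the other the highest with A > 0. MicroRNA levels are not measured by these libraries, and a part of miR-29 in either difference was not tested.

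The other genes of the lipoprotein lipase system, from LPL maturation factors to endocytic receptors, lay mostly below 0. Of the 17 listed, 10 had A > 0, and all 10 had M below 0, with a median M of −0.54. The median over all genes with A > 0 was also below 0, at −0.05. Of the 10, 5 (50%) were called lower and 0 higher, beside 11.4% and 5.73% of all genes. *Lrp1*, a large endocytic receptor, was at 204 TPM and 151 TPM, an M of −0.43 [−0.44, −0.42]. *Angptl8*, another regulator of LPL, had the lowest M of the list, −1.41 [−1.89, −0.96], on 156 and 54 reads, and *Furin*, a proprotein convertase, the highest at −0.08 [−0.11, −0.06]. *Gpihbp1*, which anchors LPL on endothelium, had only 13 and 9 reads. Across the ANGPTL family the members with A > 0 went both ways. Of 6, 3 (50%) were called lower and 2 (33.3%) higher, beside the same 11.4% and 5.73%, and the median M of the 6 was −0.42. This balance depended on low genes, since with CPM, TMM or DESeq2 scaling 4 passed A > 0, with 1 called lower and 2 higher and a median above 0 (0.18, 0.17 and 0.17). *Angptl2* was by far the most abundant, at 135 and 112 TPM (M of −0.27 [−0.29, −0.24]). *Angptl4* made up 6.15% of the family's TPM in siCtrl and 13.6% in si*Vgll3*, and *Angptl7* was at 3.15 TPM and 4.55 TPM, an M of 0.53 [0.34, 0.72].

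**Figure D2:**
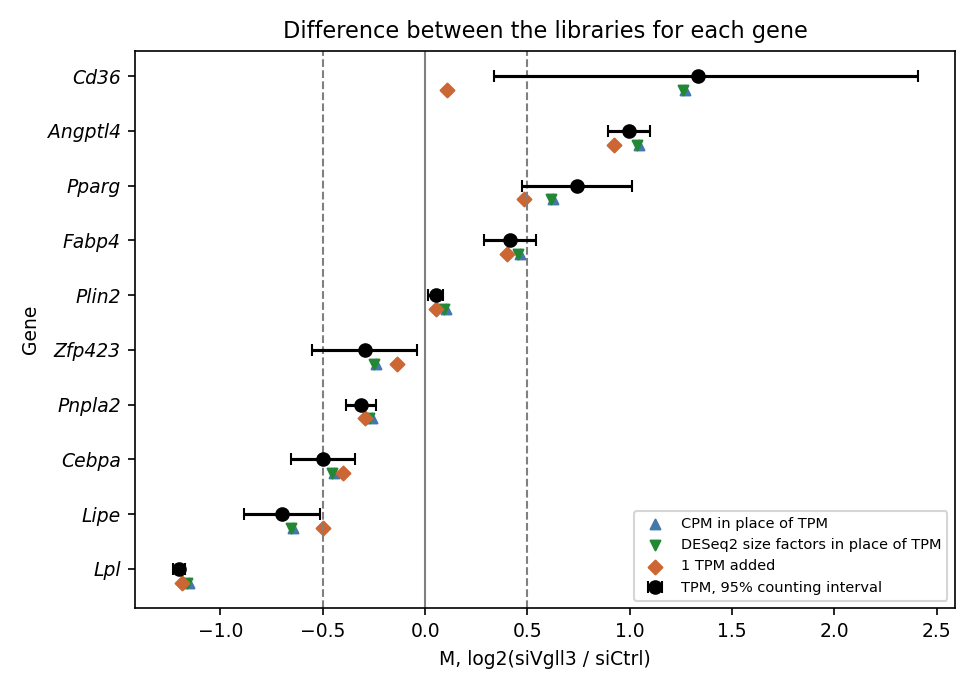
M of each gene (log2 of si*Vgll3* over siCtrl, horizontal axis) from TPM with its 95% counting interval (black), and under 3 other treatments of the same values (coloured). Dashed lines mark M of −0.5 and 0.5. *Lpl* at −1.20 and *Angptl4* at 1.00 stood clear of both lines, while the interval of *Pparg* reached down to 0.47.

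Of the 3 transcription factors, only *Pparg* was called, on the higher side. *Pparg*, the nuclear receptor that drives adipogenesis, lies on chromosome 6 from 115360951 to 115490399 and drew 199 reads in siCtrl against 274 in si*Vgll3*. Its level was low in both libraries, at 1.46 TPM and 2.44 TPM. The M was 0.74 [0.47, 1.01], so the counting interval ran below the threshold. Adding 1 TPM to each level brought *Pparg* to an M of 0.48, and the gene was no longer called. From the read counts alone, scaled to library totals (CPM), M was 0.62. The gap of 0.12 between the TPM and CPM values was larger than for 99.6% of the genes with A > 0, whose median gap was −0.05. The TPM that a *Pparg* read was worth therefore differed between the libraries more than for most genes.

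*Pparg* has 5 protein-coding transcripts in GENCODE vM21, and gene totals do not show which were used. Of these, 2 from upstream starts code for 475 codons, 2 more are annotated with shorter coding sequences of 96 and 222 codons, and the one from the downstream start at 115422066 codes for 505 codons. The last is the form called PPARγ2 that is typical of adipocytes. The RefSeq promoter windows (GRCm38.p6, from 250 bases before to 50 bases after each start) covered 7 of the 10 genes in 11 windows, and those of *Fabp4*, *Lpl* and *Angptl4* were not analysed here. They were searched on both strands for the C/EBP core TTGCNNAA, for the TEAD core GGAATG, for AGGTCA, the core recognised by nuclear receptors, and for AGGTCANAGGTCA, its direct repeat bound by PPAR-RXR pairs, which contains the shorter AGGTCA. These are found in 10.8%, 14.7%, 16.3% and 0.0396% of all 32851 windows. Neither the TEAD core nor the repeat was present in the 11 windows. The C/EBP core lay at 2 places in the downstream *Pparg* window and once in a *Zfp423* window. AGGTCA lay in 5 windows, 2 of *Pparg* and 1 each of *Plin2*, *Cd36* and *Zfp423*. *Plin2* was the most abundant of the genes with a window. Matches of *Plin2*, the downstream *Pparg* start and 1 upstream *Pparg* start are printed, with the motif in capitals, and the other matches are not.
Pparg downstream start, chr6:115421840-115421869, plus strand: tgtaccaagtcTTGCCAAAgcagcagacag
Pparg downstream start, chr6:115422036-115422065, plus strand: ttaaccaaccaatcTTTTGCAAgacataga
Pparg upstream start, chr6:115361104-115361133, plus strand: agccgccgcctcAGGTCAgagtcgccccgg
Plin2, chr4:86670260-86670289, minus strand: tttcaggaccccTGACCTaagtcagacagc
Such matches are descriptions of the sequence, and no binding was measured.

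*Pparg* was a minor PPAR in these cells. *Ppard*, the form found in most tissues, was at 24.5 and 20.6 TPM, an M of −0.25 [−0.32, −0.19]. *Ppara*, the form of oxidative tissues, had only 128 and 57 reads, at 0.268 TPM and 0.130 TPM. Of the TPM of these 3 receptors, *Pparg* held 5.55% in siCtrl and 10.5% in si*Vgll3*. Of the RXR partners, *Rxra* was at 30.6 TPM and 22.8 TPM (M of −0.43 [−0.47, −0.38]), *Rxrb* was at 22.6 TPM and 21.2 TPM (M of −0.09 [−0.16, −0.02]), and *Rxrg* had 0 reads in both libraries, a count that allows up to 3 reads.

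*Cebpa*, the partner of *Pparg* in the mature adipocyte, lies on chromosome 7 from 35119293 to 35121928. Its 853 reads in siCtrl and 560 in si*Vgll3* gave 5.06 and 3.59 TPM. With an M of −0.497 [−0.65, −0.34] it stood just short of the threshold and was not called. The early adipogenic factor *Cebpb* was higher, at 2.55 and 7.82 TPM on 249 and 703 reads, an M of 1.62 [1.41, 1.83]. Thus *Cebpa* had 77.4% [74.8, 79.8] of the reads on this pair in siCtrl and 44.3% [41.6, 47.1] in si*Vgll3*. *Cebpd*, also an early factor, was far more abundant than either at 141 TPM and 143 TPM, an M of 0.02. Of the exonic bases of *Cebpb*, 20.7% are also annotated to *Tmem189*, and 15.0% of those of *Cebpd* to *Spidr*, so some of their reads may belong to those neighbours.

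*Zfp423*, on chromosome 8 from 87661810 to 87959595, was barely expressed. With 295 and 223 reads it reached 0.941 and 0.767 TPM, and its M was −0.29 [−0.55, −0.04] at an A below 0. The wider lists of adipogenic regulators had medians below that of all genes. Over all genes with A > 0, 11.4% were called lower and 5.73% higher. Of 20 activators with A > 0, 4 (20%) were called lower and 1 (5%) higher, with a median M of −0.25. *Klf15*, which activates *Pparg*, had the lowest M of them, −1.34 [−1.54, −1.14], at 5.24 and 2.07 TPM, and *Cebpb* the highest. *Srebf1*, which turns on lipid synthesis genes, was at 58.8 TPM and 43.6 TPM, an M of −0.43 [−0.47, −0.40]. Of 15 inhibitors with A > 0, *Vgll3* included, 6 (40%) were called lower and 1 (6.67%) higher, with a median M of −0.22. *Vgll3* is the target of the siRNA, so its own lower call, counted among the 6, follows from the design. *Wisp2*, a secreted protein that restrains adipogenic commitment, was the most abundant and the lowest of the 15 inhibitors, at 1165 TPM and 453 TPM (M of −1.36 [−1.38, −1.35]). The highest was *Gata3* at 0.51 [0.32, 0.70], the 1 inhibitor called higher. That call was lost with 0.1 or 1 TPM added, by whole intervals, at a threshold of 1 and at A > 2. Activators and inhibitors of adipogenesis therefore both lay on the lower side by their medians, and the difference between the 2 lists was not tested.

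**Figure D3:**
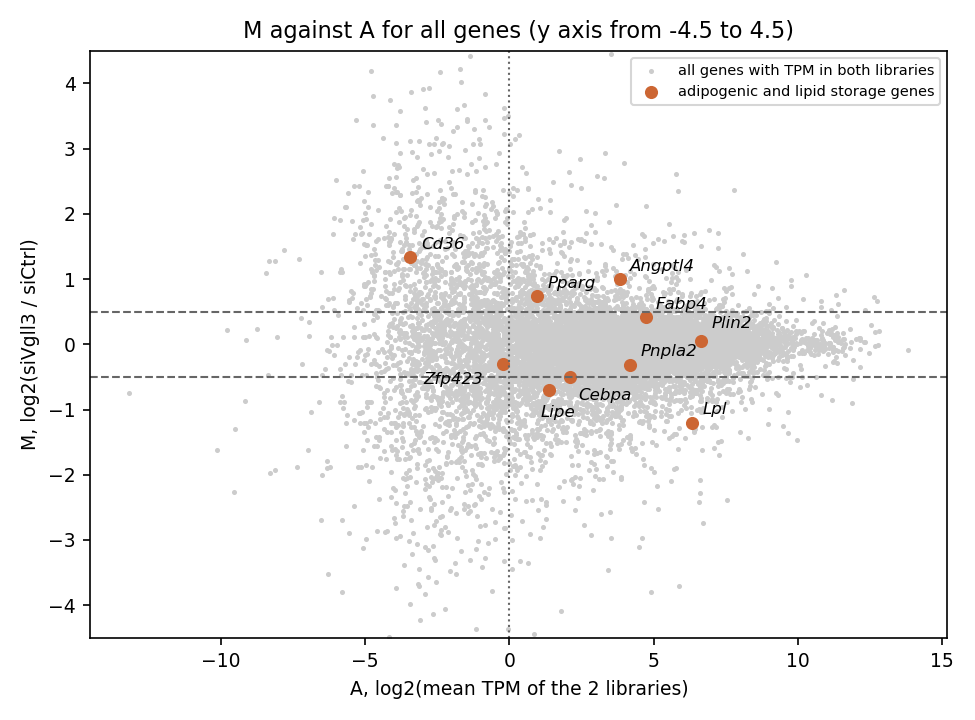
M against A for every gene with TPM in both libraries (grey) and for the 10 genes (orange), with dashed lines at M of −0.5 and 0.5 and a dotted line at A of 0. *Lpl* combines a high level with a low M, *Cd36* and *Zfp423* lie left of the dotted line, and 22 genes lie beyond the vertical limits of 4.5.

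The droplet coat gene *Plin2* differed little between the libraries. It lies on chromosome 4 from 86648386 to 86670060 and drew 11921 and 11442 reads, equal to 98.9 and 103 TPM. The M was 0.05 [0.02, 0.09], against a median of −0.05 over all genes with A > 0. *Plin2* held 61.0% of the perilipin TPM in siCtrl and 65.8% in si*Vgll3*. Nearly all of the rest was *Plin3*, another widely expressed perilipin, at 63.0 TPM and 53.3 TPM. The adipocyte perilipin *Plin1* and the perilipin of oxidative tissue *Plin5* had 0 reads in both libraries.

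Other droplet coat and assembly genes numbered 16, and 9 of them had A > 0. Over all genes with A > 0, 11.4% were called lower and 5.73% higher. Of these 9 droplet genes, 2 (22.2%) were called lower and 0 higher, with a median M of −0.15. *Rab18*, a small GTPase of the droplet surface, was at 112 TPM and 128 TPM (M of 0.19 [0.17, 0.22]), and *Aup1*, a droplet and endoplasmic reticulum protein, at 96.6 TPM and 87.2 TPM (M of −0.15 [−0.19, −0.11]). The lowest was *Mettl7a1* at −0.97 [−1.08, −0.86], a droplet-associated protein with close paralogs whose reads the counting could have split. The highest was *Fitm2*, which helps droplets form, at 0.27 [0.15, 0.39]. The droplet genes restricted to adipocytes or muscle, *Cidea*, *Cidec* and *Fitm1*, had 0 reads in both libraries.

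Of the lipolytic enzymes in the set, *Lipe* was called lower and *Pnpla2* was not called. *Pnpla2*, which takes the initial fatty acid from triglyceride, lies on chromosome 7 from 141455198 to 141460743 and drew 3413 reads in siCtrl against 2543 in si*Vgll3*. At 20.3 TPM and 16.3 TPM, its M of −0.31 [−0.39, −0.24] was within the thresholds. *Lipe*, which acts on the resulting diglyceride, lies on chromosome 7 from 25379527 to 25398710 and had 664 and 379 reads, at 3.23 TPM and 1.99 TPM. Its M of −0.70 [−0.89, −0.52] was called lower, with 15.6% of its exonic bases shared with the annotated gene *4732471J01Rik*.

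The regulators of ATGL differed from each other. *G0s2*, which inhibits ATGL, was at 87.2 and 28.6 TPM, the lowest M of the lipolysis list at −1.61 [−1.69, −1.52]. *Abhd5*, which activates ATGL, differed little between the libraries, with an M of −0.01 [−0.06, 0.04]. *G0s2* transcripts therefore outnumbered *Pnpla2* transcripts 4.30 to 1 in siCtrl and 1.75 to 1 in si*Vgll3*, by TPM, while *Abhd5* stood at 1.87 to 1 and 2.31 to 1. *Abhd5* and these ratios were chosen after the values were seen. Over all genes with A > 0, 11.4% were called lower and 5.73% higher. Of the 12 lipolysis genes with A > 0, 2 (16.7%) were called lower and 1 (8.33%) higher, with a median M of −0.28. The higher one was *Pde3b*, a phosphodiesterase that opposes the lipolytic signal, at 28.1 TPM and 41.0 TPM, an M of 0.54 [0.50, 0.58]. The protein kinase A subunits *Prkaca* and *Prkar2b* were the most abundant members, at 151 and 153 TPM in siCtrl, with M of −0.16 [−0.19, −0.13] and −0.43 [−0.45, −0.40].

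*Fabp4*, the fatty acid binding protein of adipocytes and capillary endothelium, was not called. It lies on chromosome 3 from 10204088 to 10208576 and drew 927 reads in siCtrl against 1143 in si*Vgll3*, or 22.6 and 30.2 TPM. The M of 0.41 [0.29, 0.54] missed the threshold but exceeded that of 92.6% of the genes with A > 0. *Fabp5*, its near neighbour on chromosome 3, was far more abundant and differed in the other direction, at 574 and 397 TPM (M of −0.53 [−0.55, −0.51]). *Fabp4* thus held 3.73% of the TPM of the family in siCtrl and 6.99% in si*Vgll3*, and the muscle form *Fabp3* was the lowest of all uptake genes, at −1.45 [−1.79, −1.12].

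Endothelial markers, which *Fabp4* could accompany, did not move one way. Of the 12, 6 had M above 0 and 6 below. *Pecam1*, *Cdh5* and *Egfl7* were at 0.47, 0.50 and 0.42, near the M of *Fabp4*, and *Cldn5* at 3.34 on 11 and 94 reads. *Tek*, the most abundant, was at −0.54, *Erg* and *Vwf* at −0.52 and −0.51, and *Gpihbp1* at −0.47. A comparison of read shares was made only with *Pecam1* and *Cdh5*, chosen after the values were seen. Of the reads on *Fabp4* and *Pecam1*, *Fabp4* took 70.2% [67.7, 72.7] in siCtrl and 69.2% [66.9, 71.4] in si*Vgll3*. With *Cdh5* in its place the shares were 63.1% [60.5, 65.5] and 61.7% [59.4, 63.9]. Both markers had an M near that of *Fabp4*, so the small change in these shares followed from the choice. No share was computed with *Tek*, *Erg* or *Vwf*, whose M lay on the other side of 0. A part of endothelial cells in the *Fabp4* difference was not tested.

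*Cd36*, the fatty acid translocase, was close to the limit of detection. The gene lies on chromosome 5 from 17781690 to 17888801 and drew 13 reads in siCtrl against 28 in si*Vgll3*, or 0.0527 and 0.133 TPM. The M of 1.33 [0.34, 2.41] rests on these few reads, and with 1 TPM added to both libraries it was 0.11. The related scavenger receptors *Scarb1* and *Scarb2* were at 72.8 and 317 TPM in siCtrl, so *Cd36* made up 0.0135% of the TPM of these 3 genes there and 0.0552% in si*Vgll3*.

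**Figure D4:**
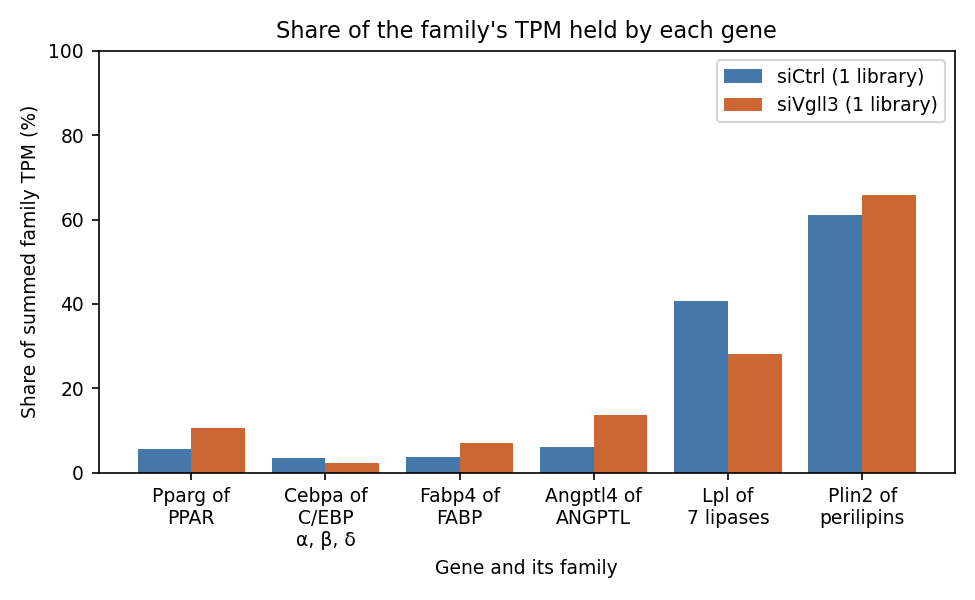
Percent of a family's summed TPM held by 1 of the 10 genes, in siCtrl (blue) and si*Vgll3* (orange), 1 library each, with bars starting at 0. The share of *Pparg* was 5.55% and 10.5%, that of *Angptl4* 6.15% and 13.6% and that of *Lpl* among 7 lipases 40.6% and 28.2%.

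The wider list of fatty acid uptake, binding and activation genes lay lower in si*Vgll3*. Of 15 with A > 0, 7 (46.7%) were called lower and 0 higher, beside 11.4% and 5.73% of all genes. The median M of the 15 was −0.50. *Dbi*, the acyl-CoA binding protein and the most abundant of the list, was at 968 and 686 TPM. Its M of −0.496 [−0.52, −0.47] fell just short of the threshold and was not called. *Dbi* and *Fabp5* have processed pseudogenes that could share their reads. The highest was *Got2*, a mitochondrial aminotransferase also described at the cell surface as a fatty acid binder, at 0.30 [0.27, 0.32].

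Triglyceride synthesis genes were called in both directions, and the share of fatty acid oxidation genes called lower was near that of all genes. Over all genes with A > 0, 11.4% were called lower and 5.73% higher. Of the 14 synthesis genes with A > 0, 1 (7.14%) was called lower and 2 (14.3%) higher. Of these 14, 7 lay above and 7 below 0, with a median M of 0.02. *Gpam*, a mitochondrial acyltransferase, was at 19.3 TPM and 11.1 TPM (M of −0.80 [−0.87, −0.73]). *Mogat2*, a monoacylglycerol acyltransferase best known from the intestine, was at 3.12 TPM and 11.1 TPM, an M of 1.83 [1.66, 2.01] on 353 and 1161 reads. The abundant enzymes *Agpat1* and *Gpat4* were at −0.01 [−0.05, 0.02] and 0.05 [0.02, 0.08]. Of 25 PPAR target and oxidation genes, 3 were called lower and 0 higher, with a median M of −0.11, and 21 had M below 0 and 4 above. *Pdk4*, a PPAR target that spares glucose, had the highest M, 0.49 [0.35, 0.62], at 3.65 TPM and 5.12 TPM, and *Ucp2*, a mitochondrial carrier, the lowest at −1.17 [−1.33, −1.01]. *Etfb* and *Hadhb*, which are both abundant enzymes of fatty acid oxidation, were at −0.10 [−0.14, −0.06] and 0.37 [0.33, 0.40]. Other annotated genes cover 58.2% of the exonic bases of *Etfb*, so its value is uncertain, as is that of *Fabp3* with 19.6% and *Aup1* with 23.0%.

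Most of the listed mature adipocyte markers had no reads in either library. Of 18 markers, 10 had no read in either library, including *Lep*, *Retn*, *Cfd*, *Plin1*, *Cidec* and *Ucp1*. *Adipoq*, which encodes adiponectin, had 0 and 2 reads, and *Adrb3*, the adrenergic receptor of adipocytes, 63 and 67 reads (M of 0.20 [−0.32, 0.72]). The insulin-responsive glucose transporter *Slc2a4* had 45 and 9 reads, *Plin4* 52 and 23 reads and *Thrsp* 23 and 0 reads. Only *Fabp4*, *Lipe* and *Nnat* had A > 0, and *Nnat*, an endoplasmic reticulum proteolipid, was at 2.49 TPM and 5.09 TPM, an M of 1.03 [0.78, 1.29]. The *Nnat* gene overlaps *Blcap*.

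**Figure D5:**
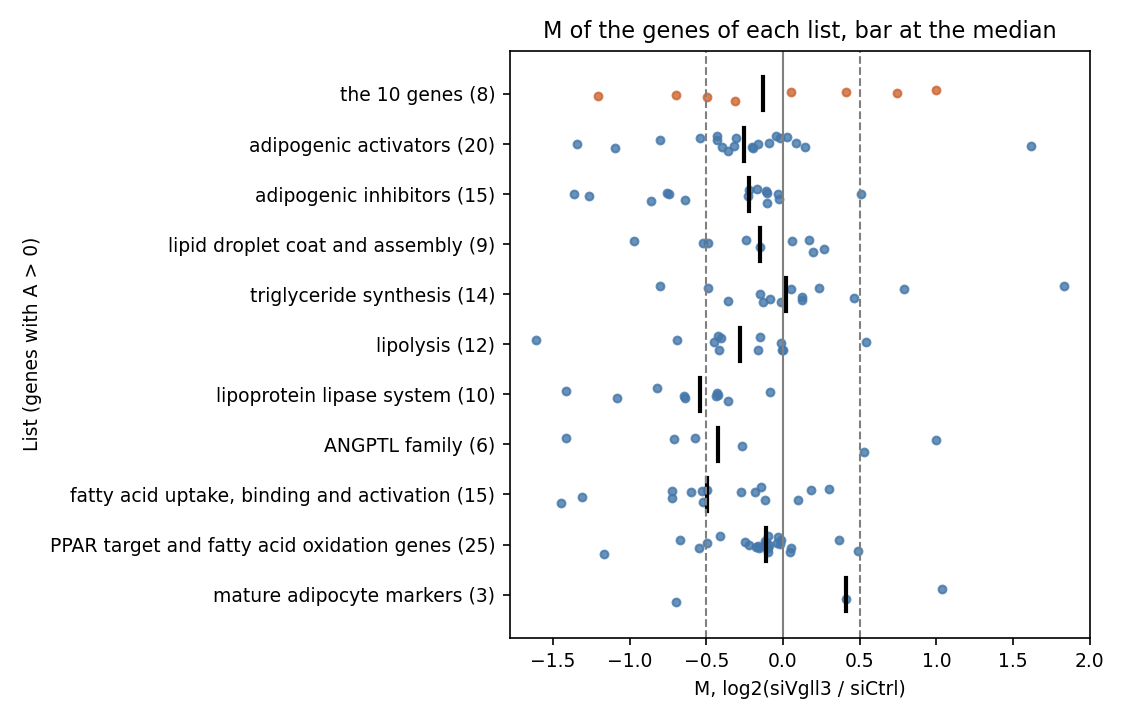
M of each gene with A > 0 (points) in the set of 10 (orange) and in the lists of related genes (blue), with a bar at each median, the number of genes in brackets and dashed lines at −0.5 and 0.5. The medians ran from −0.54 in the lipoprotein lipase system to 0.41 over the 3 adipocyte markers, a value that is *Fabp4* itself, with *Lipe* another of the 3. Without the filter on A the marker median was −0.25 over 6 genes.

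Of the other 5 ANGPTL genes with A > 0 by TPM, *Angptl7* shared the sign of *Angptl4* and 4 had M below 0, of which fewer passed A > 0 under the other scalings. Of the PPAR receptors and RXR partners with TPM, *Pparg* alone had M above 0 and the other 4 had M below 0. *Lpl*, called lower, had the sign shared by all 10 genes of the lipoprotein lipase system with A > 0. The median M over all genes with A > 0, −0.05, had that sign too. Whether other cultures would differ in the same way cannot be read from 1 library per condition.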

How the data were processed

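mRNA of cardiac myofibroblasts was measured in 2 libraries, 1 per condition, made with the TruSeq Stranded mRNA LT kit. Per the study's methods, FastQC was used for quality control, Trimmomatic for trimming, HISAT2 for mapping (genome mm10) and StringTie for assembly and abundance. Versions, the annotation release and the strand setting of the counting are not given in the sources used here. The authors deposited raw read counts per gene as whole numbers without normalization. A table of TPM, which corrects for transcript length and depth, was deposited beside it, and TPM was used as it stands for M and A, with nothing added before the logarithm.

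The members and lists were chosen with earlier results of these data known. Named were all 10 members, *Vgll3*, every PPAR and RXR gene and, from each pathway list, the 2 most abundant other genes and those with the lowest and highest M at A > 0. Further genes were named after their values were seen. One gene that this rule names is not reported here. Positions, overlaps and 3′ UTRs came from GENCODE vM21 (GRCm38, the same assembly as mm10), and promoters and microRNAs from RefSeq. Counting intervals were computed with scipy 1.17.1 and tested on simulated counts. The simulation held no PCR copies and left out genes with as few reads as *Cd36*, so it does not cover those cases. No model could be fitted with 1 library per condition, so edgeR 4.0.16 and DESeq2 1.42.0 only scaled the counts. The alternatives were CPM, TMM or DESeq2 scaling, 0.1 or 1 TPM added, centred M, a threshold of 1, whole intervals, A > 2 and no filter on A.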

Additional observations from a re-analysis of the deposited data

How the results depend on the processing

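No paired analysis was possible because there is a single library on each side, 1 for siCtrl and 1 for si*Vgll3*. Under the 6 other scalings and added values, each of the 10 genes kept the sign of its M. *Lpl* ranged from −1.20 to −1.15, *Angptl4* from 0.93 to 1.05 and *Lipe* from −0.67 to −0.50, and each stayed past the threshold. *Pparg* ranged from 0.48 to 0.79. With 1 TPM added, 1 gene of the set was called higher, since *Pparg* fell short, and 1 when the whole counting interval had to pass. With a threshold of 1, 1 gene was called lower and 0 higher. With A > 2, which leaves out *Pparg* and *Lipe*, 1 was lower and 1 higher. Without a filter on A, *Cd36* made 3 higher and 2 stayed lower. Over all genes, 384 were lower and 207 higher at a threshold of 1, 442 were higher by whole intervals, 393 were higher at A > 2, and 2103 were lower and 1428 higher without the filter, each of which changes the genes tested or the bar. The median M of the set ran from −0.25 to −0.08. Depth limits *Cd36*, with 13 and 28 reads, more than any other of the 10 genes. For the related lists, the median M changed sign in the ANGPTL family (0.18, 0.17 and 0.17 by CPM, TMM and DESeq2 scaling, where 1 was lower and 2 higher of 4, and 0.36 at A > 2), in triglyceride synthesis (−0.05 at A > 2) and in the adipocyte markers (−0.25 without the filter, with 3 lower and 1 higher of 6). In the ANGPTL family 1 was lower and 1 higher with 1 TPM added or by whole intervals, and 0 and 1 at A > 2.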
